A study of Mus musculus with 18 samples.

Results

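Isl1, Irx3, Irx4, Irx5, Nr2f1, Nr2f2 and Hopx are transcriptional regulators of the second heart field and of the heart's chambers, and their signals were followed through 18 arrays of differentiating mouse embryonic stem cells. The 7 genes were chosen by name, and every probe set paired with 1 of their symbols was taken, which gave 14 of the 45101 probe sets on the array. Hopx and Isl1 had 2 probe sets each, Nr2f2 had 6 and the other genes had 1. The values of a gene are those of its brightest probe set, and 13 of the 14 probe sets reached 22.5 units, which is the median over all arrays and probe sets, on 2 arrays or more. The exception was an Nr2f2 probe set that was not used for the gene. Irx4 reached that level on only 4 arrays.

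The cells came from the mouse embryonic stem cell line D3. A stable clone carried green fluorescent protein (GFP) behind an enhancer of Nkx2-5 and the minimal promoter of hsp68, together with a hygromycin resistance gene. It was differentiated without leukemia inhibitory factor as embryoid bodies in hanging drops, with ascorbic acid in the medium. On each of days 5, 6, 7 and 8 a cell sorter parted the cells with GFP from those without. Each of the 8 sorted groups, called GFP-positive and GFP-negative here, had 1 array from batch 1 and 1 from batch 2. Another stable clone carried a neomycin resistance gene behind the alpha myosin heavy chain (Myh6) promoter, and its cardiomyocytes, selected with G418, gave 2 arrays to which the labels assign neither a day nor a batch. All RNA went through 2 rounds of amplification before labelling. Each population thus rests on a single clone, and GFP follows an enhancer fragment, not the whole Nkx2-5 gene. No label says that arrays of 1 group are separate cultures, so a p-value here speaks of the spread between these arrays, and that spread may be technical.

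The second heart field is a pool of progenitor cells that adds the outflow tract, the right ventricle and much of the atria to the early heart tube. Isl1, a LIM homeodomain factor, marks these progenitors and is switched off as they become heart muscle, and it is also made in foregut endoderm and in motor neurons. The Iroquois factors Irx3, Irx4 and Irx5 are homeodomain proteins, of which Irx4 is a marker of ventricular muscle while Irx3 and Irx5 act in the ventricular conduction system and in patterning of many other tissues. Nr2f1 and Nr2f2 (COUP-TFI and COUP-TFII) are orphan nuclear receptors linked to atrial identity, and Nr2f2 also acts in veins and mesenchyme. Hopx is an unusual homeodomain protein that does not bind DNA itself and restrains the activity of serum response factor (Srf) in heart muscle.

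Iroquois genes lie in clusters. In the RefSeq annotation of GRCm38.p6, Irx3 and Irx5 are direct neighbours among coding genes on chromosome 8, followed by Irx6, and Irx4 lies next to Irx2 and Irx1 on chromosome 13. Isl1 and Nr2f1 are also on chromosome 13 but have no other member as a neighbour. The series' files name no genome build, and these positions serve only to say which genes are neighbours.

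RefSeq promoter windows were found for 6 of the 7 genes, in 8 windows, and Irx5 had no entry. The windows of Hopx and Isl1 are printed because these genes differed in opposite directions between late GFP-positive cells and selected cardiomyocytes. Each sequence is the 250 bases before a transcription start, 5′ to 3′ on the gene's strand, from GRCm38.p6. Capitals mark matches to the motifs searched.
Hopx, first start, chr5:77115124-77115373, minus strand: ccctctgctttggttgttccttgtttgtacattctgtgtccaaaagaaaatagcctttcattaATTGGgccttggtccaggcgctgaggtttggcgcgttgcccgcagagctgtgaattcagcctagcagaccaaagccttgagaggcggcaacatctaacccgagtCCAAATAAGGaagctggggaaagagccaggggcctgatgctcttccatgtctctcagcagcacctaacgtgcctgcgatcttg
Hopx, second start, chr5:77095268-77095517, minus strand: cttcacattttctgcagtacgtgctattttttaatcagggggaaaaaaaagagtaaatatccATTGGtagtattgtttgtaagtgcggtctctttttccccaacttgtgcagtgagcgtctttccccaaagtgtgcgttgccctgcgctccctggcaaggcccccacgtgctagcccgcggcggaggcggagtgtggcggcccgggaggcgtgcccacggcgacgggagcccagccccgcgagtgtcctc
Isl1, chr13:116309689-116309938, minus strand: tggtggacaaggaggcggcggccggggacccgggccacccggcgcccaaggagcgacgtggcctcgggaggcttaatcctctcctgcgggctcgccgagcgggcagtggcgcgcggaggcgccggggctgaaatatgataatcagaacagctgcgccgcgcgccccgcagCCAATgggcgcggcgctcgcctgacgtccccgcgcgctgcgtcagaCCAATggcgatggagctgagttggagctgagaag
The motifs searched on both strands were the CArG box, which is the palindromic site of Srf, and CCAAT, which the factor NF-Y binds. The others were TATAAA, known from core promoters, AGATAA, bound by zinc finger factors such as Gata4, AGGTCA, where nuclear receptors bind, and AGGTGTGA, which T-box factors bind. No motif overlapped another. The first Hopx window held CCAAATAAGG, a CArG box that begins 83 bases before the start, and 1.47% of 32851 windows of the same length held such a box. Each Hopx window also held CCAAT on the opposite strand, beginning 187 and 188 bases before the start. The Isl1 window held CCAAT at 80 and at 34 bases before the start, and 33.8% of all windows held this motif. TATAAA was in 12.4% of all windows, AGATAA in 9.99%, AGGTCA in 14.0% and AGGTGTGA in 1.12%, and none of the 3 printed windows matched them. A match describes letters only and says nothing of binding.

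Nkx2-5 and Myh6, whose control elements drive the reporters, served as a check of the labels. Nkx2-5 lay between 67.4 and 323.2 units in GFP-positive cells from day 6 on, against 43.5 to 107.4 in GFP-negative cells, and was at 474.4 and 500.0 in selected cardiomyocytes. On day 5 it was at 170.0 and 60.6 units in GFP-positive and at 95.2 and 57.3 in GFP-negative cells (batch 1, batch 2), so the fractions of batch 2 hardly differed. Over all days it was 1.07 ± 0.26 higher in GFP-positive cells (log2, SE; adjusted p = 0.0441), a call that was lost in 14 of 18 fits with 1 array left out (adjusted p between 0.0112 and 0.122). Myh6 reached 8122.3 and 7891.5 units in selected cardiomyocytes, and on day 5 of batch 2 it was at 19.5 units in GFP-positive and 25.0 in GFP-negative cells. It did not pass over all days (1.81 ± 0.81; adjusted p = 0.255) or for cardiomyocytes against late GFP-positive cells (1.88 ± 1.41; adjusted p = 0.308). Those late GFP-positive arrays, at 1192.9 to 2920.9 units, all lay below both cardiomyocyte arrays. Myh6 did pass between the periods in GFP-positive cells (3.65 ± 1.15; adjusted p = 0.042), with 1.59 in batch 1 and 5.70 in batch 2. Against late GFP-negative cells it was 4.52 ± 1.41 higher in cardiomyocytes (adjusted p = 0.0185). Over all days 0 of 8 cardiomyocyte markers passed (median 1.38), while 6 of 8 endothelial markers were higher in GFP-positive cells and 0 lower (median 1.5). Of the 8 cardiomyocyte markers 4 rose between the periods in GFP-positive cells, where 19.4% of all genes passed. In cardiomyocytes 3 were higher than in late GFP-positive and 6 than in late GFP-negative cells, where 43.3% and 46.2% of all genes passed. Median signals per array ran from 18.2 to 29.3 units, and 13379 genes were tested in every comparison. The number of arrays limits the precision. Deposited signals were scaled by trimmed mean, and setting array medians equal moved the median change of all genes from 0.09 to -0.29 between the periods in GFP-positive cells and from -0.13 to 0.24 between cardiomyocytes and late GFP-positive cells. Genes higher and lower numbered 1516 and 1074 between the periods in GFP-positive cells, and 667 and 3941 with equal medians, or 1098 and 1274 with quantile normalization. In GFP-negative cells they numbered 970 and 703, and 574 and 1075 with equal medians. They numbered 2393 and 3405 for cardiomyocytes against late GFP-positive cells, and 3812 and 1650 with equal medians, and 2713 and 3463 against late GFP-negative cells, and 3252 and 2369 with equal medians.

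**Figure D1:**
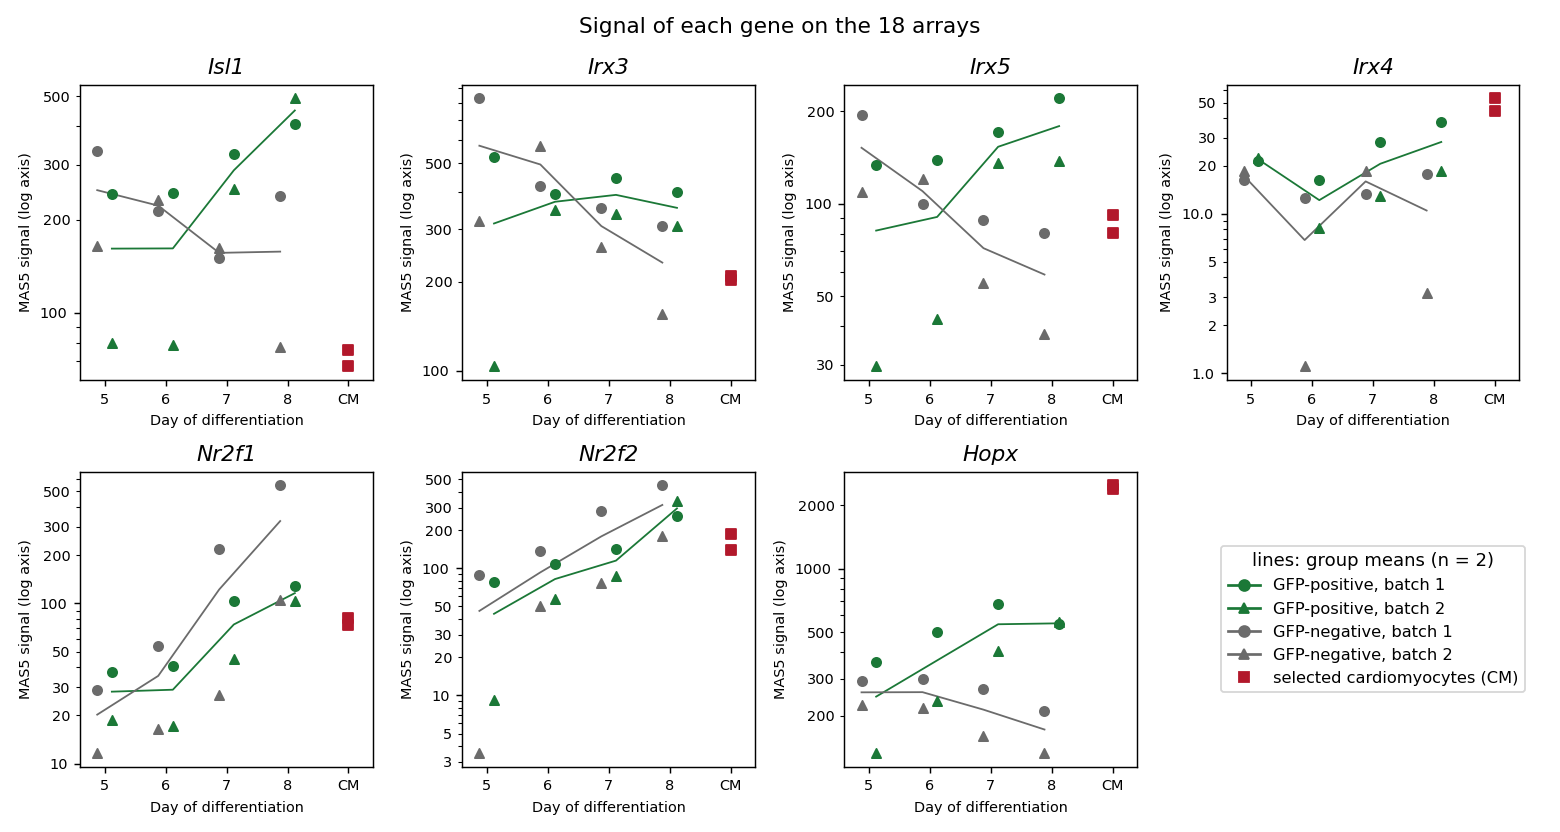
Signal of each gene (MAS5 units, log axis, a scale of its own in each panel) against day of differentiation, with selected cardiomyocytes (CM) at the right. Points are arrays (circles batch 1, triangles batch 2, squares cardiomyocytes) and lines join the means of the 2 arrays of a group. Isl1 and Hopx in GFP-positive cells end above GFP-negative cells, Nr2f1 and Nr2f2 are higher on day 8 than on day 5 in both fractions and batches, and Hopx is highest and Isl1 lowest by group mean in cardiomyocytes.

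Isl1 was brightest in late GFP-positive cells and dimmest in selected cardiomyocytes. In GFP-positive cells its signal was 242.1 and 80.2 units on day 5 (batch 1, batch 2), 243.7 and 79.1 on day 6, 325.1 and 251.2 on day 7, and 406.9 and 491.5 on day 8. In GFP-negative cells it was 333.2 and 164.1 on day 5, 212.5 and 230.9 on day 6, 150.4 and 161.9 on day 7, and 237.7 and 77.5 on day 8. Selected cardiomyocytes had 75.9 and 67.2. All 4 late GFP-positive arrays (days 7 and 8) thus lay above all 4 early ones (days 5 and 6), and both cardiomyocyte arrays lay below every sorted array. Of the 9 groups in order of their means, day 8 GFP-positive cells (449.2 ± 59.8 units, SD, n = 2) did not overlap with the next, day 7 GFP-positive cells (288.2 ± 52.3), and cardiomyocytes (71.6 ± 6.2) did not overlap with the group above them. The other 6 of 8 neighbouring pairs overlapped.

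Within GFP-positive cells, Isl1 rose by 1.31 ± 0.41 from the early to the late days (log2, SE; 4 arrays against 4; adjusted p = 0.0416, limma with Benjamini-Hochberg adjustment), a 2.48-fold change. In this comparison 19.4% of all tested genes passed the threshold of 0.05. The rise was 0.57 in batch 1 and 2.05 in batch 2, where the early arrays were at 80.2 and 79.1 units. Isl1's dimmer probe set gave 0.94 ± 0.29 (adjusted p = 0.0416). The call was near the threshold: it was lost in 12 of 18 fits with 1 array left out, with adjusted p between 0.0506 and 0.186, with equal array medians (0.89; adjusted p = 0.116), with no filter on dim genes (adjusted p = 0.0515), with sorted arrays alone (adjusted p = 0.0577) and for day 8 against day 5 (1.63; adjusted p = 0.0667). Some of those 12 fits lacked a GFP-positive array, of day 7, of day 8, or of batch 2 of day 5 or day 6. The others lacked an array of day 6 or day 7 GFP-negative cells or of selected cardiomyocytes. The latter arrays enter only through the estimate of spread shared by all groups, and without them the rise stayed at 1.31. In GFP-negative cells the difference between the periods was -0.62 ± 0.41 (adjusted p = 0.350) and the arrays overlapped.

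Isl1 was lower by 2.22 ± 0.50 in selected cardiomyocytes than in late GFP-positive cells (log2, SE; 2 arrays against 4; adjusted p = 0.0033), or 4.66-fold. The cardiomyocytes came from another clone, selected with G418 and with no day given, so clone, selection and time cannot be told apart. In this comparison 43.3% of all tested genes passed. The difference was -2.24 against batch 1 and -2.20 against batch 2, and the dimmer probe set gave -1.98 ± 0.36 (adjusted p = 0.000685). The call was kept in all 18 fits that left out 1 array (adjusted p at most 0.0354) and with equal array medians (-1.82; adjusted p = 0.012). Against late GFP-negative cells the difference was -0.97 ± 0.50 (adjusted p = 0.137), with the dimmer probe set at -1.04 ± 0.36 (adjusted p = 0.0305). It passed once day 8 GFP-negative cells of batch 2 were left out (-1.35; adjusted p = 0.042). Late GFP-positive arrays enter both this comparison and the one between periods, so the size of each depends on them. In such sorted and selected populations, fewer cells of a type and less RNA per cell cannot be told apart.

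The order of the fractions within pairs was not the same in the 2 periods. Isl1 was higher in the GFP-positive cells of 1 of 4 pairs (arrays matched by day and batch) on days 5 and 6 (log2 differences from -1.47 to 0.19) and of 4 of 4 pairs on days 7 and 8 (0.61 to 2.56). Over all days the difference was 0.29 ± 0.29 (adjusted p = 0.647), with a 95% interval from -0.34 to 0.92. The change over time differed between the fractions by 1.93 ± 0.58 (log2; adjusted p = 0.174, and 0.0571 with batch as a block), which did not pass.

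Other cell types moved along with Isl1. The summed signal of 8 endoderm markers was 4791.3 to 13693.5 units in late GFP-positive cells, 169.1 to 4212.5 in early ones and 342.8 to 426.2 in cardiomyocytes. Of these 8 markers 5 rose between the periods in GFP-positive cells (Apob, Cubn, Foxa2, Hnf4a and Sox17). In cardiomyocytes 7 were lower than in late GFP-positive cells. The summed signal of 8 cardiomyocyte markers was 1214.5 to 8178.8 units in early GFP-positive cells, 9663.1 to 16112.3 in late ones and 38030.0 to 38224.6 in cardiomyocytes. The 8 endothelial markers summed to 2834.7 to 3767.4 units in early GFP-positive cells, 3298.0 to 5666.8 in late ones and 228.0 to 264.5 in cardiomyocytes, and 4 of the 8 rose between the periods (Emcn, Icam2, Pecam1 and Plvap). The 5 markers of motor and sensory neurons summed to no more than 86.2 units in any array. Mnx1, Chat and Pou4f1 stayed under 22.5 units in all late GFP-positive arrays, while Lhx3 and Neurog1 did not. The part of these other cells in the Isl1 result was not tested.

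Over the 18 arrays, the genes whose log2 signal correlated best with that of Isl1 were Efna1, a ligand of Eph receptors (r = 0.93), Cpm, a membrane carboxypeptidase (0.93), and Foxa1, a forkhead factor of endoderm (0.92). The arrays share groups, days and batches, so these values only describe likeness.

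Of 13 other genes listed for the second heart field 11 were tested. None of them passed between the periods in GFP-positive cells. An unadjusted p under 0.05 was found for 4 of the 11, and for 4642 of all 13379 genes tested. The median change was 0.60 against 0.09 for all genes. In cardiomyocytes against late GFP-positive cells, where 43.3% of all genes passed, 1 was higher and 3 were lower. The median there was -0.27 against -0.13 for all genes. Wnt11, a secreted Wnt of the outflow tract, was higher by 1.48 ± 0.26 (log2; adjusted p = 0.00054). Ldb1, the adaptor that binds LIM domains such as those of Isl1, was lower by 0.92 ± 0.19 (adjusted p = 0.00164). In GFP-negative cells only Wnt5a, another secreted Wnt, passed between the periods, and it fell by 1.11 ± 0.26 (adjusted p = 0.0187).

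**Figure D2:**
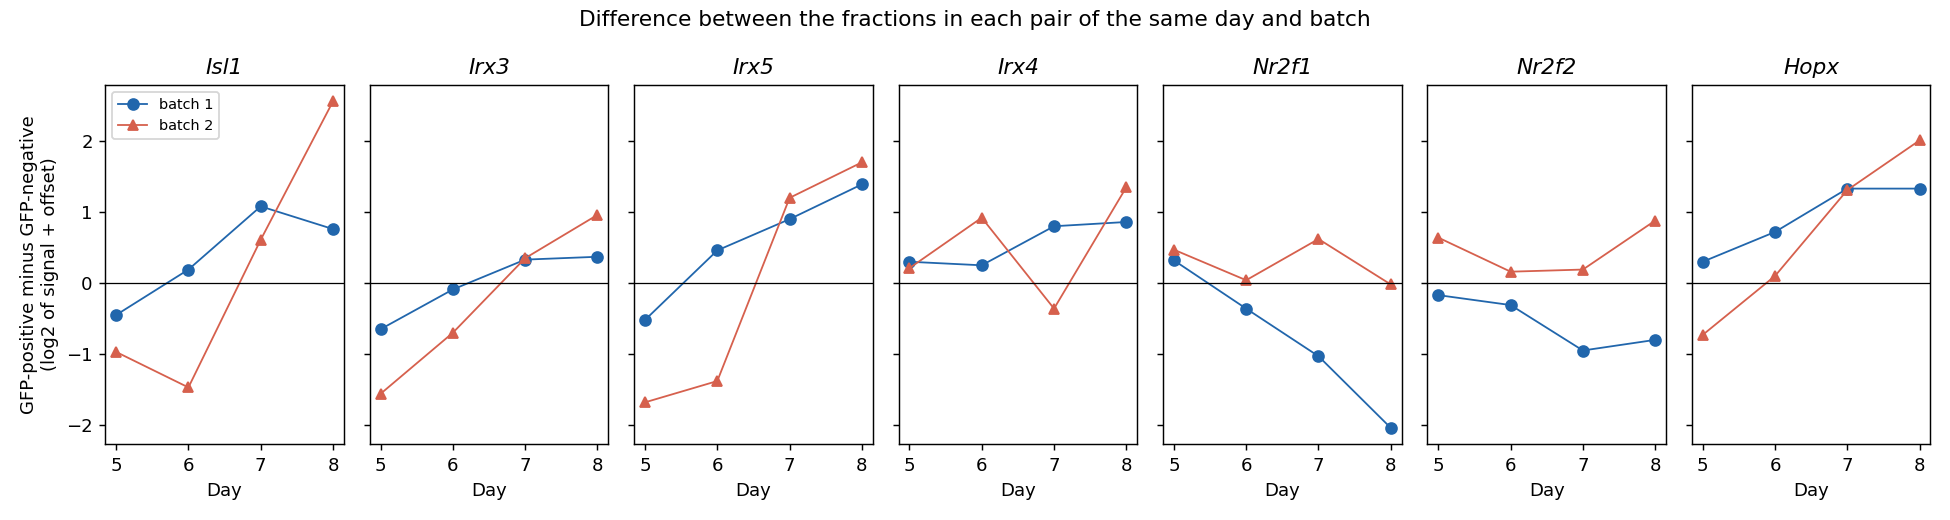
Difference between the GFP-positive and the GFP-negative array of the same batch (log2 of signal plus offset, y axis) on days 5 to 8, for each gene, with batch 1 as circles and batch 2 as triangles. On days 7 and 8 all 4 pairs of Isl1, Irx3, Irx5 and Hopx lie above 0, while on days 5 and 6 Irx3 has 0 of 4 and Isl1 and Irx5 have 1 of 4 above 0.

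Of the neighbours Irx3 and Irx5, Irx5 had its higher medians in early GFP-negative and late GFP-positive cells (114.9 and 154.2 units, against 88.2 in early GFP-positive and 67.7 in late GFP-negative cells). Irx3 had its highest median in early GFP-negative cells (495.9 units), while early and late GFP-positive cells had nearly the same (371.4 and 369.0). Irx3 was at 524.1 and 103.5 units on day 5 in GFP-positive cells (batch 1, batch 2), 394.3 and 348.5 on day 6, 446.8 and 336.8 on day 7, and 401.2 and 307.4 on day 8. In GFP-negative cells it was at 828.4 and 318.9, then 419.5 and 572.3, 353.1 and 262.0, and 308.3 and 155.1. Selected cardiomyocytes had 202.7 and 208.9 units of Irx3, below all 4 late GFP-positive arrays and within the range of the late GFP-negative ones. All 8 neighbouring pairs of groups, ordered by mean from 573.6 ± 360.3 (SD, n = 2; day 5 GFP-negative) to 205.8 ± 4.4 (cardiomyocytes), overlapped.

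Irx5 was at 134.1 and 29.6 units on day 5 in GFP-positive cells, 139.1 and 42.2 on day 6, 170.8 and 135.7 on day 7, and 220.2 and 137.6 on day 8. In GFP-negative cells it was at 194.6 and 109.6, then 99.6 and 120.3, 88.3 and 55.2, and 80.1 and 37.7. Cardiomyocytes had 92.3 and 80.4, below all late GFP-positive arrays. In GFP-negative cells all 4 late arrays of Irx5 lay below all 4 early ones, while in GFP-positive cells 1 early array, day 6 of batch 1, lay within the late range. The highest group was day 8 GFP-positive cells (178.9 ± 58.4) and the lowest day 8 GFP-negative cells (58.9 ± 30.0), and all 8 neighbouring pairs in the order overlapped.

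No change of Irx3 or Irx5 passed the threshold in the fit without a batch term. From early to late days Irx5 changed by 1.12 ± 0.43 in GFP-positive cells (log2, SE; adjusted p = 0.0812) and by -0.95 ± 0.43 in GFP-negative cells (adjusted p = 0.162). With batch as a block these passed, at adjusted p = 0.0134 and 0.0383, and the difference of the 2 changes, 2.07 ± 0.61, went from adjusted p = 0.163 to 0.0369. The difference of the changes was 1.17 in batch 1 and 2.98 in batch 2. Batch 1 was brighter than batch 2 in 7 of 8 sorted groups for Irx5, by up to 1.95 on the log2 scale. Leaving out day 5 GFP-positive cells of batch 1 also brought the difference of the changes past the threshold (2.56; adjusted p = 0.0406). Without that array, or without day 6 GFP-positive cells of batch 1, the rise in GFP-positive cells passed too (1.61 and 1.52; adjusted p = 0.0117 and 0.0277).

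For Irx3 the change was 0.31 ± 0.42 in GFP-positive cells (adjusted p = 0.634) and -0.94 ± 0.42 in GFP-negative cells (adjusted p = 0.153). The first turned to -0.11 with equal array medians. The second passed when either day 5 GFP-positive array was left out. These arrays enter it only through the estimate of spread shared by all groups, and it stayed at -0.94. The GFP-positive array had more Irx3 in 0 of 4 pairs on days 5 and 6 and in 4 of 4 on days 7 and 8, with log2 differences from -1.56 to -0.09 and from 0.33 to 0.96. The difference of the 2 changes was 1.26 ± 0.59 and did not pass (adjusted p = 0.395).

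In the comparison over all days, 0 of the 7 genes and 2.68% of all genes passed in the limma fit. Before adjustment 1 of the 7 had p below 0.05, as did 2479 of all 13379 genes tested. The difference of the 2 changes over time gave 0 calls among the 7 and 0.142% among all genes. Its p before adjustment lay below 0.05 for 3 of the 7 (Irx5, Isl1 and Hopx) and for 1728 of the 13379. The fit that included the block called 2 of the 7 (Irx5 and Hopx) and 142 of all genes (1.06%). On days 7 and 8 alone, a comparison chosen after seeing the data, Irx5 was 1.30 ± 0.43 higher in GFP-positive cells (adjusted p = 0.0893, and 0.0152 with the block) and Isl1 1.25 ± 0.41 (adjusted p = 0.087, and 0.0278 with the block). On days 5 and 6 alone the differences were -0.78 ± 0.43 for Irx5, -0.68 ± 0.41 for Isl1 and -0.75 ± 0.42 for Irx3, and none passed with or without the block.

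Against selected cardiomyocytes, neither gene passed. Irx3 differed by -0.82 ± 0.51 from late GFP-positive cells (log2; adjusted p = 0.215) and Irx5 by -0.87 ± 0.53 (adjusted p = 0.203), and from late GFP-negative cells they differed by -0.32 ± 0.51 and 0.43 ± 0.53. The 95% interval of the Irx5 difference from late GFP-positive cells ran from -2.00 to 0.27. The genes most like Irx3 over the 18 arrays were Cltrn (r = 0.83), Apela, a peptide hormone of the early embryo (0.83), and Bmf, a proapoptotic Bcl2 relative (0.80). Cltrn was dim, at 0.9 to 24.9 units. Those most like Irx5 were Kitl, the ligand of the receptor Kit (0.90), Aqp1, a water channel (0.86), and Eml2, a microtubule protein (0.84). Endoderm markers, summed above, moved with Irx5 in GFP-positive cells as they did with Isl1. In GFP-negative cells the summed signal of 8 neuroectoderm and neuron markers was 311.4 to 1637.6 units early and 175.3 to 258.0 late, and 1 of the 4 tested fell (Otx2). The 7 markers of undifferentiated stem cells summed to 397.9 to 7009.8 units early and 325.9 to 570.6 late, and 2 of the 7 fell (Nanog and Utf1). The part of these cells in the Irx3 and Irx5 values was not tested.

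Irx4 was dim in all sorted cells and brightest in selected cardiomyocytes. It was at 21.6 and 22.4 units on day 5 in GFP-positive cells (batch 1, batch 2), 16.3 and 8.1 on day 6, 28.3 and 13.0 on day 7, and 37.9 and 18.7 on day 8. GFP-negative arrays lay between 1.1 and 18.6 units with a median of 14.4 early and 15.6 late. Cardiomyocytes had 44.3 and 53.2 units, above all 16 sorted arrays. Only these 2 and the batch 1 arrays of day 7 and day 8 GFP-positive cells reached 22.5 units, so the order of the sorted groups among themselves is not informative.

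The fit called Irx4 higher in cardiomyocytes than in late GFP-negative cells (adjusted p = 0.0114), a comparison in which 46.2% of all genes passed. All 4 late GFP-negative arrays, at 3.2 to 18.6 units, lay under 22.5, so the fitted difference has no fixed size: it was 1.55 ± 0.44 with the offset used (log2, SE), 2.02 with an offset of 1 and 0.85 with an offset of 32. The call was lost without either cardiomyocyte array (adjusted p = 0.051 and 0.0872). Against late GFP-positive cells the difference was 0.89 ± 0.44 (adjusted p = 0.122), and it passed with quantile normalization (1.15; adjusted p = 0.0463), with equal array medians (1.23; adjusted p = 0.0348) and with a larger offset of 32 (0.53; adjusted p = 0.0382). The fitted difference between the fractions over all days did not pass (adjusted p = 0.278) and rests on signals mostly under 22.5 units. The genes most like it over the 18 arrays were Myl7, the atrial myosin light chain that early heart muscle makes throughout (r = 0.86), Gpr173, an orphan receptor (0.86), and Mrgpre, another orphan receptor (0.85). Gpr173 and Mrgpre were dim as well, at no more than 48.9 and 44.6 units.

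Genes listed as relatives of the regulators followed here numbered 9, and all were tested. They gave 1 rise and 0 falls between the periods in GFP-positive cells, where 19.4% of all genes passed. The median change was 0.58 against 0.09 for all genes. Ldb2, a LIM domain binding adaptor also strong in endothelium, rose by 1.92 ± 0.50 (log2; adjusted p = 0.0207). Its signal was lower by 4.44 ± 0.61 in cardiomyocytes than in late GFP-positive cells (adjusted p = 0.000106). In GFP-negative cells, where 12.5% of all genes passed, 2 fell. These were Irx1, by 1.06 ± 0.27 (adjusted p = 0.0263), and Lhx1, a LIM homeodomain factor of early mesoderm, by 2.74 ± 0.71 (adjusted p = 0.0275). Of the 9, 3 were lower in cardiomyocytes than in late GFP-positive cells, a comparison in which 43.3% of all genes passed. Among them was Irx2, the neighbour of Irx4, lower by 1.44 ± 0.27 (adjusted p = 0.00098).

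Of 8 ventricular genes 6 were tested. Between the periods in GFP-positive cells 3 of them rose, where 19.4% of all genes passed. The median change was 2.02 against 0.09 for all genes. Myl2, the ventricular myosin light chain, rose by 3.70 ± 1.03 (log2; adjusted p = 0.0267) and Myl3 by 3.90 ± 1.15 (adjusted p = 0.0333), with 1.71 and 1.46 in batch 1 but 5.70 and 6.34 in batch 2. In cardiomyocytes against late GFP-positive cells, where 43.3% of all genes passed, 1 ventricular gene was higher and 1 lower. Cited1, a transcriptional coactivator, was higher by 1.10 ± 0.41 (adjusted p = 0.0471). Hey2, a Notch target that represses atrial genes, was lower by 1.91 ± 0.56 (adjusted p = 0.015). Of 9 atrial genes 6 were tested, and 2 were higher in that comparison. Their median was 2.18 against -0.13 for all genes. Nppa, the atrial natriuretic peptide that embryonic ventricles make as well, was higher by 7.81 ± 0.32 (adjusted p = 1.8e-08). Sln, a regulator of the calcium pump in atria, was higher by 3.83 ± 0.43 (adjusted p = 2.28e-05). None of the 6 atrial genes passed between the periods in either fraction. In GFP-positive cells 2 had an unadjusted p under 0.05, as did 4642 of all 13379 genes tested. In GFP-negative cells 0 did, against 3896 of all genes.

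**Figure D3:**
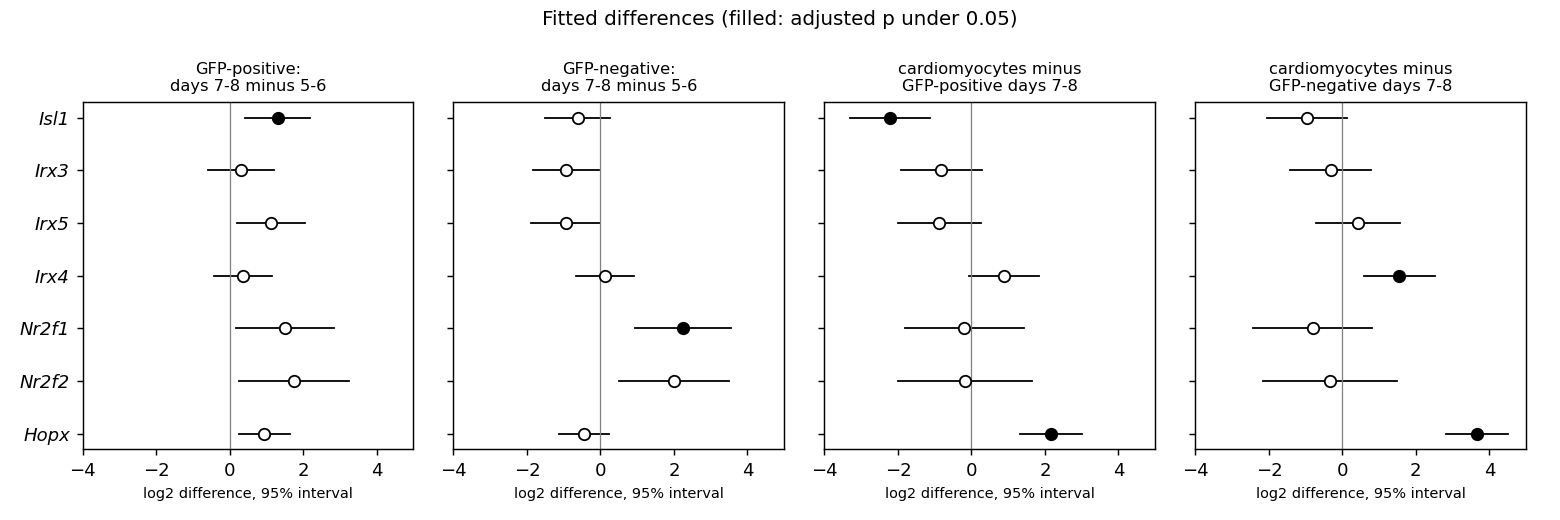
Fitted differences of the 7 genes (log2 of signal plus offset, x axis) with 95% intervals, between late and early days in each fraction and between selected cardiomyocytes and late cells of each fraction. Filled points passed an adjusted p of 0.05: Isl1 in GFP-positive cells, Nr2f1 in GFP-negative cells, Isl1 and Hopx for cardiomyocytes against late GFP-positive cells, and Irx4 and Hopx against late GFP-negative cells.

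Nr2f1 and Nr2f2 were brighter on day 8 than on day 5 in both fractions and both batches, and of the changes from early to late days only that of Nr2f1 in GFP-negative cells passed. Nr2f1 was at 37.5 and 18.7 units on day 5 in GFP-positive cells (batch 1, batch 2), 40.6 and 17.2 on day 6, 102.8 and 44.8 on day 7, and 127.9 and 103.7 on day 8. In GFP-negative cells it was at 28.8 and 11.6, then 54.0 and 16.5, 217.3 and 26.8, and 547.0 and 105.4. Cardiomyocytes had 73.6 and 80.6. In GFP-positive cells all 4 late arrays lay above all 4 early ones, and in GFP-negative cells the day 7 array of batch 2 fell within the early range.

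Nr2f1 rose by 2.24 ± 0.61 from early to late GFP-negative cells (log2, SE; 4 arrays against 4; adjusted p = 0.0321), a 4.74-fold change, where 12.5% of all genes passed. The rise was 2.92 in batch 1 and 1.57 in batch 2. It missed the threshold without the day 5 or day 6 array of batch 2 (2.01 and 1.90; adjusted p = 0.117 and 0.136) and without the day 7 or day 8 array of batch 1 (1.56 and 1.67; adjusted p = 0.127 and 0.0955), all GFP-negative. In GFP-positive cells the change was 1.51 ± 0.61 (adjusted p = 0.0987, and 0.0066 with batch as a block). The changes of the fractions differed by -0.74 ± 0.86 (adjusted p = 0.752), with an interval from -2.60 to 1.13.

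Nr2f2 was at 78.4 and 9.2 units on day 5 in GFP-positive cells, 107.6 and 56.8 on day 6, 142.2 and 87.5 on day 7, and 256.0 and 335.7 on day 8. In GFP-negative cells it was at 88.8 and 3.5, then 135.5 and 50.2, 280.4 and 76.1, and 451.4 and 178.7. Cardiomyocytes had 138.4 and 186.6. The late arrays of both fractions overlapped with the early ones, and all 8 neighbouring pairs of groups overlapped. The change was 1.75 ± 0.69 in GFP-positive cells (log2; adjusted p = 0.0921, and 0.0116 with the block) and 2.00 ± 0.69 in GFP-negative cells (adjusted p = 0.0755, and 0.00867 with the block), so neither passed without the block. On day 8 against day 5 alone the changes were 3.02 (adjusted p = 0.0469) and 3.22 (adjusted p = 0.0474). Both changes from early to late days passed when either day 5 array of the other fraction was left out. Those arrays enter only through the estimate of spread shared by all groups, and the changes stayed at 1.75 and 2.00. Both also passed without the batch 1 day 5 array of the same fraction (2.35 and 2.80).

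Batch 1 was the brighter batch in 8 of 8 sorted groups for Nr2f1, by 0.29 to 2.74 on the log2 scale, and in 7 of 8 for Nr2f2, by up to 3.21. The difference between the fractions over all days went in opposite directions in the batches. It was -0.78 in batch 1 and 0.28 in batch 2 for Nr2f1, and -0.56 and 0.47 for Nr2f2. The pooled differences were -0.25 ± 0.43 (adjusted p = 0.809) and -0.05 ± 0.49 (adjusted p = 0.975). Among the other 5 Nr2f2 probe sets, r with the one used ran from 0.49 to 0.97 over the 18 arrays. The 4 of them that were tested gave smaller changes from early to late days, 0.86 to 1.29 in GFP-positive cells (adjusted p between 0.0694 and 0.147) and 0.33 to 1.18 in GFP-negative cells (adjusted p between 0.132 and 0.548), and none passed.

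In GFP-negative cells, markers of fibroblasts and mesenchyme rose between the periods as Nr2f1 did. The 7 such genes summed to 144.3 to 3924.1 units in early GFP-negative cells and to 3346.2 to 19861.3 in late ones, and 6 of the 7 rose (Col1a1, Col1a2, Col3a1, Dcn, Lum and Postn). In GFP-positive cells they summed to 135.9 to 2301.5 units early and to 2067.8 to 2751.5 late, and 0 of the 7 passed. In cardiomyocytes they summed to 22299.9 to 22375.9 units. There 5 of the 7 were higher than in late GFP-positive cells, a comparison in which neither receptor passed. Thy1 stayed under 22.5 units in all late sorted arrays. The part of these cells in the rise of Nr2f1 was not tested.

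Against selected cardiomyocytes neither Nr2f1 nor Nr2f2 passed. Their differences from late GFP-negative cells were -0.81 ± 0.75 (adjusted p = 0.403) and -0.34 ± 0.85 (adjusted p = 0.769), and from late GFP-positive cells -0.19 ± 0.75 and -0.17 ± 0.85, which turned to 0.19 and 0.23 with equal array medians.

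The genes most like Nr2f1 over the 18 arrays were Csf1r, the receptor of macrophage growth factor (r = 0.93), Nck2, a signalling adaptor (0.92), and Bsdc1 (0.92). Those most like Nr2f2 were Dlk1, a Notch-related protein of immature mesenchyme (0.96), Sox6, an HMG box factor (0.95), and Tbc1d20 (0.95). Csf1r ran from 24.4 to 2715.9 units and Dlk1 from 37.0 to 2970.5.

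Retinoic acid supports atrial fate and Nr2f genes are among its known targets, so its pathway was followed in 10 of 12 listed genes. Between the periods 2 rose and 1 fell in GFP-positive cells (median 0.35 against 0.09 for all genes), where 19.4% of all genes passed. In GFP-negative cells 1 rose and 3 fell (median -0.15 against -0.01), where 12.5% passed. Crabp2, a binding protein that carries retinoic acid to its receptors, rose by 2.21 ± 0.57 in GFP-positive cells (log2; adjusted p = 0.0193). Crabp1, a cytoplasmic binding protein, fell by 1.11 ± 0.31 there (adjusted p = 0.0286) and by 2.02 ± 0.31 in GFP-negative cells (adjusted p = 0.00512), where Cyp26a1, which degrades retinoic acid, fell by 2.68 ± 0.61 (adjusted p = 0.0166). Over all days Cyp26b1, another degrading enzyme, was 1.23 ± 0.28 higher in GFP-positive cells (adjusted p = 0.0359). In cardiomyocytes against late GFP-positive cells 1 of the 10 was higher and 2 were lower, where 43.3% of all genes passed. The median there was -0.59 against -0.13 for all genes. Crabp1 was lower by 2.82 ± 0.38 (adjusted p = 9.55e-05). Aldh1a2, the enzyme that makes retinoic acid and also a marker of epicardium, was higher by 3.19 ± 0.45 (adjusted p = 0.00013).

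Hopx was far brighter in selected cardiomyocytes than in any sorted cells. In GFP-positive cells its signal was 360.3 and 133.4 units on day 5 (batch 1, batch 2), 499.4 and 234.3 on day 6, 683.1 and 406.2 on day 7, and 543.9 and 556.7 on day 8. In GFP-negative cells it was 292.3 and 225.1 on day 5, 299.9 and 218.5 on day 6, 268.3 and 159.8 on day 7, and 211.6 and 132.9 on day 8. Cardiomyocytes had 2495.3 and 2401.5 units, against a highest sorted value of 683.1. The 4 late GFP-positive arrays lay above all 8 GFP-negative arrays. In the order of group means cardiomyocytes (2448.4 ± 66.3, SD, n = 2) did not overlap with day 8 GFP-positive cells (550.3 ± 9.1), and the other 7 of 8 neighbouring pairs overlapped.

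Hopx was higher by 2.17 ± 0.39 in cardiomyocytes than in late GFP-positive cells (log2, SE; 2 arrays against 4; adjusted p = 0.00071), a 4.50-fold difference. Against late GFP-negative cells it was higher by 3.67 ± 0.39 (adjusted p = 1.29e-05), or 12.7-fold. Both calls were kept in all 18 fits with 1 array left out, with adjusted p at most 0.0112 and 0.000534. The dimmer Hopx probe set gave 1.26 ± 0.44 (adjusted p = 0.0331) and 2.18 ± 0.44 (adjusted p = 0.0013). The direction was the same against each batch, at 1.99 and 2.35 against GFP-positive cells and 3.32 and 4.01 against GFP-negative cells.

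In sorted cells the GFP-positive array had more Hopx in 7 of 8 pairs, the exception being day 5 of batch 2. The 4 differences on days 7 and 8 lay close together, from 1.31 to 2.01 on the log2 scale, and those on days 5 and 6 ran from -0.73 to 0.72. Over all days the difference was 0.80 ± 0.23 (adjusted p = 0.082), or 0.62 ± 0.25 with the dimmer probe set (adjusted p = 0.235). The first passed with batch as a block (adjusted p = 0.00449). It also passed without the batch 2 GFP-positive array of day 5 or day 6 (0.97 and 0.93; adjusted p = 0.0166 and 0.0417). Comparisons within 1 period were chosen after seeing the data. On days 7 and 8 alone the difference was 1.50 ± 0.32 (adjusted p = 0.0183), where 6.63% of all genes passed. On days 5 and 6 alone it was 0.10 ± 0.32 (adjusted p = 0.992).

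Between the periods Hopx changed by 0.95 ± 0.32 in GFP-positive cells (log2; adjusted p = 0.0522, and 0.00348 with the block) and by -0.44 ± 0.32 in GFP-negative cells (adjusted p = 0.389). The first passed without the batch 1 array of day 5 or day 6 or the batch 2 array of day 7 in GFP-positive cells (adjusted p = 0.00937, 0.0225 and 0.0436). It also passed with quantile normalization (adjusted p = 0.0395) and an offset of 32 (adjusted p = 0.047), and was 0.53 with equal array medians (adjusted p = 0.23). The difference of the 2 changes was 1.40 ± 0.45 (adjusted p = 0.206, and 0.0369 with the block). The dimmer Hopx probe set changed by only 0.54 ± 0.36 in GFP-positive cells (adjusted p = 0.317) and by -0.07 ± 0.36 in GFP-negative cells. With it the difference of the 2 changes was 0.61 ± 0.50 (adjusted p = 0.679).

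Some genes listed as markers of other cell types were bright in selected cardiomyocytes and others were dim. Which cells made these signals was not tested. The 6 epicardial markers summed to 3538.8 to 3654.1 units there, against 149.8 to 240.0 in late GFP-positive and 223.8 to 906.7 in late GFP-negative cells, and 5 of the 6 rose in each comparison (Aldh1a2, Msln, Tbx18, Upk3b and Wt1). The 5 smooth muscle markers summed to 16879.9 to 17677.7 units, against 5059.9 to 6870.4 and 3800.1 to 6131.1, and 3 and 4 of the 5 rose. Neural markers summed to 436.5 to 467.6 units, and 7 of 8 were under 22.5 on both arrays. The 8 endothelial markers summed to 228.0 to 264.5 units and the 8 endoderm markers to 342.8 to 426.2. Against late GFP-positive cells 8 and 7 of these were lower. Whether any of the Hopx signal comes from cells other than cardiomyocytes was not tested.

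Hopx was most like Fhod3, an actin organiser of heart sarcomeres (r = 0.98 over 18 arrays), Crip2, a LIM domain protein of heart and vessels (0.98), and Synpo2l, a sarcomere protein of heart muscle (0.97). Of 7 listed partners of Hopx and cardiac activators, all tested, 3 were higher and 1 lower in cardiomyocytes than in late GFP-positive cells. There 43.3% of all genes passed, and the median was 0.68 against -0.13 for all genes. Tbx20, a T-box factor of heart muscle, was higher by 2.60 ± 0.37 (log2; adjusted p = 0.000142). Smad4, the common Smad of BMP signalling, was lower by 0.74 ± 0.16 (adjusted p = 0.00236). Against late GFP-negative cells, where 46.2% of all genes passed, 4 were higher and 0 lower. Among them was Gata4, a zinc finger factor of heart muscle and endoderm, higher by 2.50 ± 0.38 (adjusted p = 0.00017). Srf fell between the periods in both fractions, by 0.58 ± 0.14 in GFP-positive cells (adjusted p = 0.015) and by 0.54 ± 0.14 in GFP-negative cells (adjusted p = 0.0269).

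**Figure D4:**
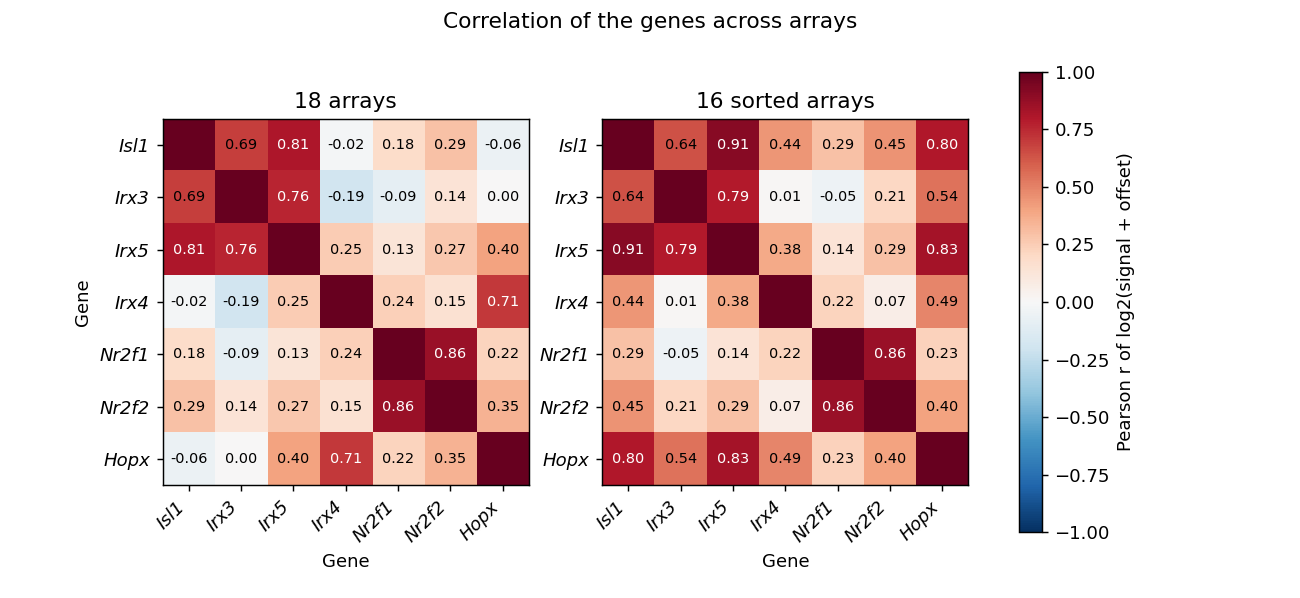
Pearson r of log2 signal between the 7 genes over all 18 arrays (left) and over the 16 sorted arrays (right), on a colour scale from -1 to 1. Isl1 and Irx5 (0.81 and 0.91) and Nr2f1 and Nr2f2 (0.86 and 0.86) are alike in both, while Isl1 and Hopx are at -0.06 with the cardiomyocyte arrays and 0.80 without them.

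How alike the 7 genes were to each other is described by correlation over arrays that share batches and groups, with no test. Isl1 and Irx5 had r = 0.81 over 18 arrays and 0.91 over the 16 sorted arrays, and Irx3 and Irx5 had 0.76 and 0.79. Nr2f1 and Nr2f2 had 0.86 in both, and their r with Isl1, Irx3 and Irx5 lay between -0.09 and 0.45. Hopx had r = 0.80 with Isl1 and 0.83 with Irx5 over the sorted arrays, but -0.06 and 0.40 once the 2 cardiomyocyte arrays were included, on which Hopx was at its highest and Isl1 at its lowest. Hopx and Irx4, both brightest in cardiomyocytes, had 0.71 over 18 arrays and 0.49 over 16, on most of which Irx4 was under 22.5 units.

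Across comparisons, 1 of the 7 genes rose between the periods in GFP-positive cells (Isl1, with a median over the 7 of 1.12 against 0.09 for all genes), and 5 passed with batch as a block (Isl1, Irx5, Nr2f1, Nr2f2 and Hopx), a fit in which 25.3% of all genes passed. In GFP-negative cells 1 rose (Nr2f1) and 3 passed with the block (Nr2f1, Nr2f2 and Irx5), where 17.9% of all genes did. The median over the 7 was -0.44 against -0.01 for all genes. In cardiomyocytes 1 was higher (Hopx) and 1 lower (Isl1) than in late GFP-positive cells, and 2 were higher (Hopx and Irx4) than in late GFP-negative cells. The counts without the block stand beside 19.4%, 12.5%, 43.3% and 46.2% of all genes, and the genes were picked by name with earlier results of these data known.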

How the data were processed

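The deposited values are signal intensities per probe set, unlogged, which the authors computed in GCOS 1.4 (MAS5), per the submitters' processing notes. Groups and batches came from the sample titles. Of 45101 probe sets, 64 controls, 9160 with no symbol and 932 with several were left out. Each of 18193 genes took its brightest probe set, and 13379 with at least 22.5 units on 2 arrays were tested. Signals entered as log2(signal + 6.8), the offset being the 25th percentile, which understates changes of dim genes. A mean per group was fitted in limma 3.58.1 (R 4.3.3; variance trend, 9 residual degrees of freedom, Benjamini-Hochberg adjustment over all genes tested, threshold 0.05). The fit was tested on simulated data. Early means days 5 and 6, late days 7 and 8.

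The labels call the array number a batch, and it was taken to pair arrays across groups. Batch differences correlated between -0.183 and 0.653 over 28 pairs of groups, with 13 over 0.1. In the fit with the block, cardiomyocytes had no batch term. A group reduced to 1 array was given the spread of the other groups. Alternatives covered the offset, scaling, filter, probe sets, block, days and single arrays. The genes, lists and markers were chosen with earlier results of these data known. Named besides the 7 genes were Nkx2-5, Myh6, at most the 2 list members with the lowest adjusted p in a comparison, the 3 most correlated genes and the markers. Figures were made with matplotlib 3.10.9.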

Additional observations from a re-analysis of the deposited data

Results flagged for a closer look

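The order of the fractions for Irx3 was opposite in the 2 periods, in every pair. It was lower in GFP-positive cells in 4 of 4 pairs on days 5 and 6 and higher in 4 of 4 pairs on days 7 and 8. The difference between the 2 changes over time was 1.26 ± 0.59 (log2, SE), with 0.72 in batch 1 and 1.79 in batch 2, and it did not pass the test of that difference (adjusted p = 0.395, and 0.208 with batch as a block).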

How the results depend on the processing

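All calls are by limma at an adjusted p of 0.05, and the cause of the changes below was not tested. With batch as a replicate block, genes called over all days went from 358 to 724 and those in the difference of changes over time from 19 to 142, and the block called 3383 (25.3%) and 2400 (17.9%) between the periods in GFP-positive and GFP-negative cells. Among the 7 genes the block gave 1 call over all days, 5 between the periods in GFP-positive cells, 3 in GFP-negative cells and 2 in the difference of changes, and it changed no other call of the 7.

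Genes called over all days were 20 on days 5 and 6 alone (35 with the block) and 887 on days 7 and 8 alone (1427 with the block), where 1 of the 7 genes passed (3 with the block). These 4 settings were chosen after seeing the data. On days 5 and 6 alone, with or without the block, the difference between the fractions turned to -0.68 for Isl1, -0.78 for Irx5, 0.12 for Nr2f1 and 0.08 for Nr2f2, and on days 7 and 8 alone to 0.50 for Irx3. An offset of 1 turned that of Nr2f2 to 0.02. None of these turned values passed.

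Between the periods in GFP-positive cells, 4608 genes were called with equal array medians and 4247 probe sets when every probe set was tested. Of the 7 genes, 2 were called with an offset of 32 or quantile normalization, where 20.4% and 17.7% of all genes passed. With equal array medians, with no filter, or with sorted arrays alone 0 were called, where 34.4%, 12.0% and 15.7% of all genes passed. In the fit reported 5 of the 7 and 4642 of all 13379 genes had an unadjusted p under 0.05. Equal medians turned the Irx3 change to -0.11. In GFP-negative cells day 8 against day 5 called 2 of the 7 and 13.0% of all genes, and turned Irx4 to -0.62. The difference of changes called 0 genes with an offset of 1, no filter or sorted arrays alone, 1 for day 8 against day 5, 32 with quantile normalization and 118 with an offset of 32. For cardiomyocytes, testing every probe set called 10112 against late GFP-positive and 10575 against late GFP-negative cells. Equal medians turned Nr2f1 and Nr2f2 against late GFP-positive cells to 0.19 and 0.23.

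With 1 array left out at a time, genes called ranged from 129 to 586 over all days, 468 to 3126 and 315 to 1960 between the periods in GFP-positive and GFP-negative cells, 0 to 157 in the difference of changes, and 3722 to 5961 for cardiomyocytes against late GFP-positive cells. Which calls of the 7 genes changed without 1 array is given with each gene above. Changes of sign lay within -0.41 to 0.16 (Irx3), -0.59 to 0.09 (Nr2f1) and -0.45 to 0.36 (Nr2f2) over all days, -0.25 to 0.88 (Irx3) and -0.20 to 0.45 (Irx4) between the periods in GFP-positive and GFP-negative cells, and -0.08 to 0.57 (Irx4) and -1.05 to 0.56 (Nr2f2) in the difference of changes. For cardiomyocytes they lay within -0.46 to 0.08 (Nr2f1) and -0.38 to 0.04 (Nr2f2) against late GFP-positive cells, and -0.79 to 0.11 (Nr2f2) against late GFP-negative cells.

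The calls of Hopx in both cardiomyocyte comparisons and of Isl1 against late GFP-positive cells were kept under every alternative run. No detection calls were used, so dim signals such as those of Irx4 cannot be told from background.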
